A study of Mus musculus with 2 samples.

Results

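Mir92b, Mir9-2, Mir9-3, Mir124a-1, Mir124a-2 and Mir124a-3 are annotated loci of 3 microRNAs that are known for marking the passage from neural progenitor to neuron. These 6 genes were taken by name from the 1973 miRNA genes in the count tables. No measured value enters that rule, though the set was chosen with earlier results of these data known. Small RNA had been sequenced from the forebrain of B6NCrl mouse embryos at embryonic day 14.5, as 2 libraries that are numbered biological replicates 1 and 2 and form a single untreated group with no named mutation or transgene. Each library is described as one forebrain with a collection day of its own, while the sex is given as pooled and the donor identifier is the same for both. No other tissue, age or treatment was analysed here, so the levels below describe this tissue and the tests compare these libraries only.

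A microRNA is cut from a hairpin precursor as a short duplex, and 1 arm of the duplex, called 5p or 3p after its side of the hairpin, guides silencing of messenger RNAs that pair with its seed, bases 2 to 8. miR-92b belongs to the miR-25 and miR-92 family and is abundant in cortical progenitors. miR-9 is expressed in the ventricular zone and in young neurons and restrains progenitor factors, among them the nuclear receptor Tlx and REST. miR-124 accumulates as neurons differentiate and silences many non-neuronal transcripts, including the splicing repressor Ptbp1. miR-9 and miR-124 are each encoded at several loci, so a read of the mature miRNA can match more than 1 locus. Such reads are counted in the multi-mapping total and in no gene.

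The sequences of the miR-92b seed family show what a read from Mir92b has in common with its relatives and where it departs from them. RefSeq sequences (GRCm38.p6, the assembly also called mm10) were matched by symbol for 3 of the 6 genes, Mir92b, Mir9-2 and Mir9-3. Each mature sequence is printed 5′ to 3′ with the seed in capitals.
miR-92b-3p: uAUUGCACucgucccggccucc
miR-92a-3p: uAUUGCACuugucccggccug
miR-25-3p: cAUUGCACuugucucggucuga
miR-32-5p: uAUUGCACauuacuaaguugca
miR-363-3p: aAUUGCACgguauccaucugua
miR-367-3p: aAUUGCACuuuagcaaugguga

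All 6 share the seed AUUGCAC, and no other mature sequence of the RefSeq table has it. Counted from 1 at the 5′ end and compared without gaps, miR-92a-3p differs from miR-92b-3p at 2 of 21 positions, C10U and C21G, with the base of miR-92b-3p written first. miR-25-3p is identical at 16 of 22 positions, miR-32-5p at 11, and miR-363-3p and miR-367-3p at 10. The other arm, miR-92b-5p, has a seed that no other listed miRNA carries. In the hairpin of Mir92b, shown here because its outer flanks are rich in G and C, the mature arms are in capitals.
Mir92b hairpin: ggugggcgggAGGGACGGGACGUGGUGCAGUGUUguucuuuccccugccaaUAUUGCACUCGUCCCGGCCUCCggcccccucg

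This hairpin lies at chr3:89227116-89227198 on the minus strand (ENSMUSG00000076255.2). It overlaps no other gene of GENCODE M21 and lies 27 bases from Mtx1, a mitochondrial import gene on the same strand. Its GC content was 67.5%, against a median of 51.7% over the 1005 RefSeq hairpins. RNAfold gave it a minimum free energy of -52.7 kcal/mol, against a median of -32.0 kcal/mol. Per nucleotide it was more stable than most, at the 97.3 percentile. Every one of its 62 windows of 22 nt was found at no other hairpin locus, which held for all windows of 89.5% of the hairpins.

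The 3 hairpins of miR-9 are printed in the same way, since their flanks decide which reads can be told apart. Mir9-1 is shown for comparison although the tables hold no gene of that name.
Mir9-1 hairpin: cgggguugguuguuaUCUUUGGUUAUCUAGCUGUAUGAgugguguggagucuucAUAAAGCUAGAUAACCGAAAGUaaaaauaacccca
Mir9-2 hairpin: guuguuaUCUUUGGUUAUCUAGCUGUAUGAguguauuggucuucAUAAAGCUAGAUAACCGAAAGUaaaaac
Mir9-3 hairpin: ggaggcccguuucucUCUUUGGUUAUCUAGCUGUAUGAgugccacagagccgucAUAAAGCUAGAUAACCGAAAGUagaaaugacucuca

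Both arms are the same at the 3 loci, with seeds CUUUGGU in miR-9-5p and UAAAGCU in miR-9-3p, so a read of exactly either arm fits all of them. The loci part in the flanks. Those behind miR-9-3p are shown because Mir9-3 separates there before the other two do, and the next 6 bases are in capitals.
miR-9-3p of Mir9-1: auaaagcuagauaaccgaaaguAAAAAU
miR-9-3p of Mir9-2: auaaagcuagauaaccgaaaguAAAAAC
miR-9-3p of Mir9-3: auaaagcuagauaaccgaaaguAGAAAU

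At Mir9-3 a read becomes specific to the locus 2 bases beyond the 3′ end of the 22-nt miR-9-3p, that is at 24 nt. Mir9-1 and Mir9-2 need 6 more bases on that side, or 28 nt. In front of the 23-nt miR-9-5p, 1 further base is enough for Mir9-3. The 7 bases annotated there for Mir9-2 are the same at Mir9-1 and do not separate these loci. Bases further in front were not compared, because the Mir9-2 hairpin holds none. Behind miR-9-5p all 3 loci need 4 bases. The labels put the size range of the libraries below 30. Of the 22-nt windows in the hairpin, 60 of 69 belonged to 1 locus at Mir9-3, 44 of 68 at Mir9-1 and 27 of 51 at Mir9-2. Windows of Mir9-1 that reach past the 5′ end of the Mir9-2 hairpin had no Mir9-2 sequence to be compared with. Aligned with gaps, the hairpins of Mir9-1 and Mir9-2 had 70 identical bases of 72 aligned, those of Mir9-2 and Mir9-3 64 of 72, and those of Mir9-1 and Mir9-3 71 of 89.

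**Figure D1:**
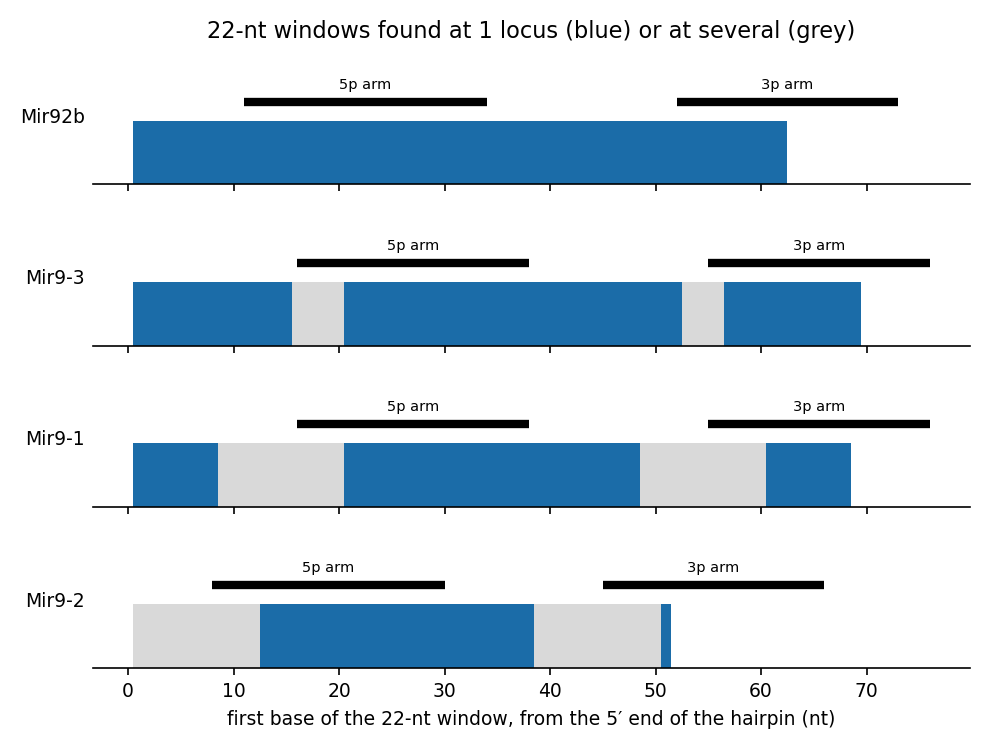
Windows of 22 nt along the hairpins of Mir92b and the 3 miR-9 loci, placed at their first base from the 5′ end (nt), in blue where the sequence occurs at 1 hairpin locus of the RefSeq table and in grey where it occurs at several; black bars mark the mature arms. Mir92b is blue throughout, and the grey stretches over the arms are shortest at Mir9-3, with 60 of 69 windows in blue, and longest in proportion at Mir9-2, with 27 of 51.

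Counts on the strand of each gene were scaled to CPM (counts per 1000000), with the summed miRNA counts of each library as the total. The 6 genes together held 0.405% of the miRNA counts in replicate 1 and 0.335% in replicate 2, or 0.370% ± 0.0492 (SD, n = 2). Mir92b supplied 83.6% ± 0.723 of the summed counts of the 6 genes, the miR-9 loci 16.3% ± 0.704 and the miR-124 loci 0.122% ± 0.0191. Reads that fit several miR-9 or miR-124 loci enter no gene, so this split is one of gene counts and not of mature miRNAs. In bulk tissue, fewer cells of a type and less RNA per cell cannot be told apart.

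With a minimum of 10 counts in both libraries, 5 of the 6 genes were detected, all except Mir124a-3, beside 20.2% of all annotated miRNA genes. At a minimum of 20 counts 3 of them remained, Mir92b, Mir9-3 and Mir9-2. The order by mean CPM was Mir92b, Mir9-3, Mir9-2, Mir124a-1, Mir124a-2 and Mir124a-3, at ranks 51, 101, 324, 375, 393 and 524 of the 1973 genes. CPM was not scaled by length, and the order was the same per 100 nt of hairpin. The share of reads that fit a single locus can differ between these genes, so the order is one of gene counts. The steps from Mir92b to Mir9-3 and from Mir9-3 to Mir9-2 were far larger than the spread between the libraries. Below them, the 95% counting intervals (exact Clopper-Pearson) of neighbours in this order overlapped in at least 1 library. Without molecular identifiers the intervals speak for counting error alone.

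**Figure D2:**
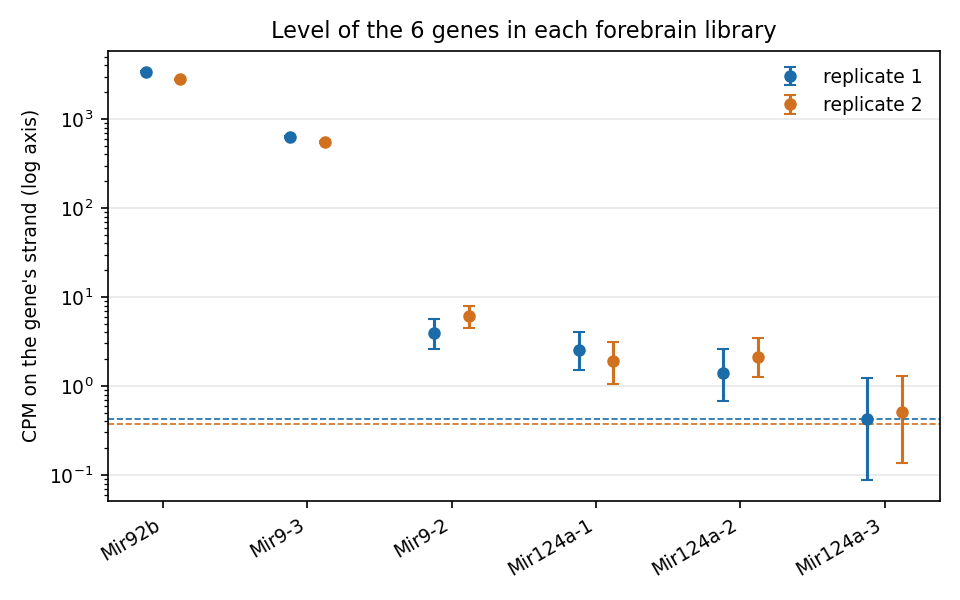
CPM on the strand of the gene (log axis) for the 6 genes in replicate 1 (blue) and replicate 2 (orange), with 95% exact binomial counting intervals; the dashed lines are the levels of 3 counts (0.424 and 0.378 CPM). Mir92b has a mean of 3097, Mir9-3 one of 595, and the other 4 genes at or below 6.04 in either library.

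Mir92b had 24120 counts in replicate 1 and 22143 in replicate 2. This was 3407 CPM (interval 3364 to 3450) and 2786 CPM (2750 to 2823), with a mean of 3097 ± 439 CPM (SD, n = 2). Replicate 1 was the higher of the libraries, and the intervals did not overlap. The genes nearest to it in level over both libraries, by Euclidean distance on log2(CPM + 1), were Mir541 at 3039 ± 303 CPM, Mir181b-2 at 3050 ± 274 CPM and Mir296 at 3209 ± 138 CPM.

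Among the genes that carry its seed, Mir92b had the most gene-assigned counts in both libraries. These counts leave out reads that fit both Mir92-1 and Mir92-2, so they do not rank the mature miRNAs. The gene-assigned counts of the family reached 6595 and 5152 CPM in replicates 1 and 2, and Mir92b made up 51.7% and 54.1% of them. Mir92-1, the source of miR-92a-3p in the miR-17~92 cluster, had 12882 and 10482 counts, or 1569 ± 354 CPM. The ratio of Mir92b to Mir92-1 counts was 1.87 in replicate 1 and 2.11 in replicate 2. Mir25, in an intron of the replication gene Mcm7, stood at 706 ± 139 CPM and lay 4.24-fold and 4.59-fold below Mir92b.

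The remaining seed relatives were lower in both libraries. Mir363 and Mir92-2 share an X-linked cluster and had 300 ± 65.6 and 49.0 ± 12.7 CPM. Mir32 had 1139 and 1155 counts (153 ± 11.0 CPM). Mir367, which belongs to a cluster of pluripotent cells, had no count in either library, which allows up to 0.424 and 0.378 CPM by the limit of 3 counts, while the exact two-sided interval reaches 0.521 and 0.464 CPM. Other genes of that cluster had counts, from Mir302a at 184 and 145 CPM to Mir302c at 17.9 and 13.0 CPM in replicates 1 and 2. miR-92a-3p is encoded by both Mir92-1 and Mir92-2, and a read of exactly its 21 nt fits both loci, so their counts leave such reads out. Mir92b has no such copy in the table, and what this difference contributes to the ratios, the order and the family share was not tested.

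**Figure D3:**
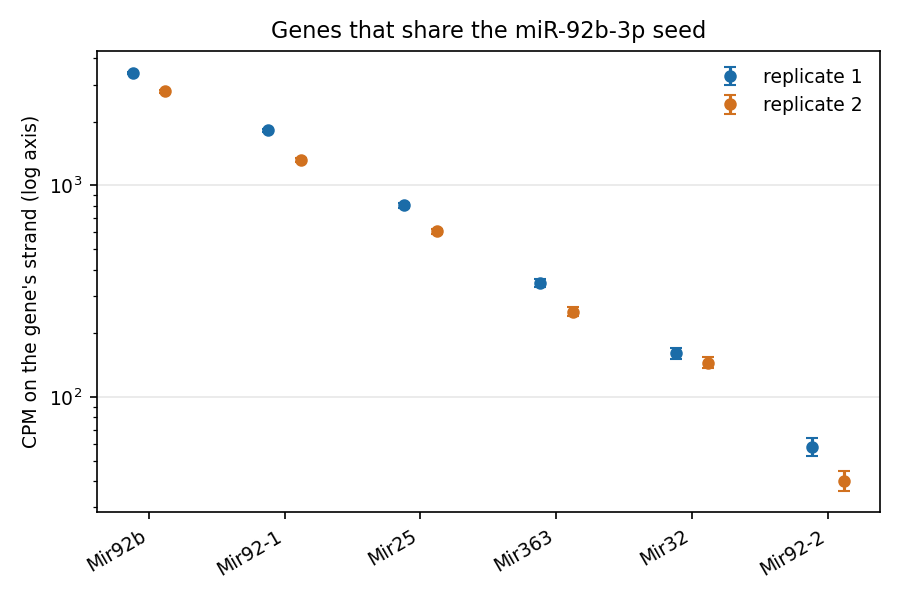
CPM on the strand of the gene (log axis) for the 6 genes with a count among those that share the seed AUUGCAC, in replicate 1 (blue) and replicate 2 (orange), with 95% exact binomial counting intervals. Mir92b is the highest in each library, followed by Mir92-1, Mir25, Mir363, Mir32 and Mir92-2, and each gene is lower in replicate 2.

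Of the miR-9 loci, Mir9-3 carried nearly all gene-assigned counts. Mir9-3 (ENSMUSG00000093238.1) lies on the plus strand at chr7:79505264-79505353, within an intron of Mir9-3hg, a long non-coding gene. It had 4489 counts in replicate 1 and 4415 in replicate 2, or 634 CPM (interval 616 to 653) and 556 CPM (539 to 572). Its mean was 595 ± 55.5 CPM (SD, n = 2), again higher in replicate 1 and with intervals that did not overlap. Nearest to it in level were Mir154 at 603 ± 57.0 CPM, Mir350 at 595 ± 90.8 CPM and Mir138-1 at 557 ± 55.1 CPM, the last a miRNA of maturing neurons.

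Mir9-2 (ENSMUSG00000065424.1) lies at chr13:83738814-83738885 on the plus strand, in an exon of the long non-coding gene C130071C03Rik. It had 28 and 48 counts, or 3.95 CPM (interval 2.63 to 5.72) and 6.04 CPM (4.45 to 8.01). Here replicate 2 was the higher, and the intervals overlapped. The ratio of Mir9-3 to Mir9-2 counts was 160 (95% interval 111 to 242) in replicate 1 and 92.0 (69.3 to 125) in replicate 2, so the size of the ratio was not well fixed while its direction was plain in each library. Mir9-3 held 99.4% and 98.9% of the counts of this pair, a balance that did not pass Fisher's exact test between the libraries (two-sided, p = 0.0209, adjusted p = 0.0835 over 4 tests of miR-9 and miR-124 loci).

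The counts at Mir9-1 can be read only through an antisense gene model. Gm25641, at chr3:88215589-88215696 on the minus strand, covers Mir9-1 at chr3:88215598-88215686 on the plus strand. It had no count on its own strand and 502 and 433 counts on the opposite strand, the strand of Mir9-1. These were 8.94-fold and 10.2-fold fewer than the counts of Mir9-3 and 17.9-fold and 9.02-fold more than those of Mir9-2. With them added, Mir9-3 held 89.4% (interval 88.6 to 90.3) of the miR-9 counts in replicate 1 and 90.2% (89.3 to 91.0) in replicate 2, Mir9-1 9.42% ± 0.819 (SD, n = 2) and Mir9-2 0.558% and 0.980%. The locus with the most counts is the one at which the shortest extension of a mature arm becomes specific, as the printed flanks show. The part of this difference in sequence in the counts was not tested.

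All 3 miR-124 loci lay near the lower limit of these counts. Mir124a-1 (ENSMUSG00000065597.1, chr14:64590657-64590741, plus strand) sits in an exon of its host gene Mir124a-1hg. It had 18 and 15 counts, or 2.54 CPM (interval 1.51 to 4.02) and 1.89 CPM (1.06 to 3.11). Mir124a-2 (ENSMUSG00000093073.1, chr3:17795662-17795770, plus strand) lies inside Mir124-2hg, partly in an exon. It had 10 and 17 counts, or 1.41 CPM (0.677 to 2.60) and 2.14 CPM (1.25 to 3.43). Mir124a-1 was thus the higher of the pair in replicate 1 and Mir124a-2 in replicate 2, with overlapping intervals in both.

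Mir124a-3 (ENSMUSG00000065454.1, chr2:180894040-180894107, plus strand) partly overlaps the long non-coding gene Gm27032. It had 3 and 4 counts, or 0.424 CPM (interval 0.0874 to 1.24) and 0.503 CPM (0.137 to 1.29). Both intervals include the level of 3 counts, 0.424 and 0.378 CPM in these libraries. The summed counts of the 3 loci were 31 and 36, or 4.45 ± 0.107 CPM (SD, n = 2). Mir124a-1 made up 58.1% (interval 39.1 to 75.5) of them in replicate 1 and 41.7% (25.5 to 59.2) in replicate 2, and Mir124a-3 9.68% (2.04 to 25.8) and 11.1% (3.11 to 26.1). None of the 3 shares passed Fisher's exact test between the libraries (adjusted p = 0.424 for Mir124a-1, 0.424 for Mir124a-2 and 1 for Mir124a-3), and at this depth a change in balance of that size was not detectable. Multi-mapping reads outnumbered all counts of the 6 genes by 281-fold in replicate 1 and 327-fold in replicate 2. How many of those reads are miR-9 or miR-124 is not known, so the abundance of these mature miRNAs cannot be compared with that of miR-92b from the gene counts.

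Between the libraries, 0 of the 6 genes differed by at least 2-fold with an adjusted p under 0.05 (two-sided Fisher's exact test, Benjamini-Hochberg over 737 genes with a count), against 1.49% of all genes tested. With no minimum fold 2 of the 6 passed, against 26.3% of all genes tested, and 2 of the 6 had an unadjusted p under 0.05, against 31.9%. The test knows counting error only, so abundant genes pass with small differences: among the 5 detected genes the share called was 40.0%, near the 46.9% of all detected genes. Mir92b had a ratio of 0.818 (replicate 2 over 1, log2 -0.29, adjusted p = 1.82e-102 in Fisher's exact test). Mir9-3 had a ratio of 0.876 (log2 -0.19, adjusted p = 3.1e-09 in Fisher's exact test). Both were higher in replicate 1, a direction called for 17% of all genes tested, and 0 of the 6 genes were called higher in replicate 2, against 9.36%.

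The other 4 genes did not pass. Mir9-2 had a ratio of 1.53 and Mir124a-2 one of 1.51, each on few counts (adjusted p = 0.242 and 0.643 in Fisher's exact test). Mir124a-1 had a ratio of 0.742 (adjusted p = 0.751 in Fisher's exact test) and Mir124a-3 one of 1.19 (adjusted p = 1). The median log2 ratio was -0.19 over the 5 detected genes and 0.03 with Mir124a-3 included, against -0.09 for all 399 detected genes, so its sign turned on the gene with the fewest counts.

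The seed relatives of Mir92b in the miR-17 clusters all passed in the same direction as Mir92b itself. Mir92-1, Mir92-2, Mir25 and Mir363 had log2 ratios of -0.46, -0.53, -0.40 and -0.45. Each was called with no minimum fold by Fisher's exact test (4 of 4, adjusted p from 1.3e-131 to 4.04e-06), where 46.9% of all detected genes were called. Of all 737 genes tested, which include those below the detection minimum, 17% were called higher in replicate 1. That share was not computed for detected genes alone. Mir32 did not pass (log2 -0.15, adjusted p = 0.0565 in Fisher's exact test). The ratio of Mir92b was closer to 1 than those of these 4 genes, and that difference was not tested. Mir363 and Mir92-2 share a primary transcript, so they are not independent of each other.

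**Figure D4:**
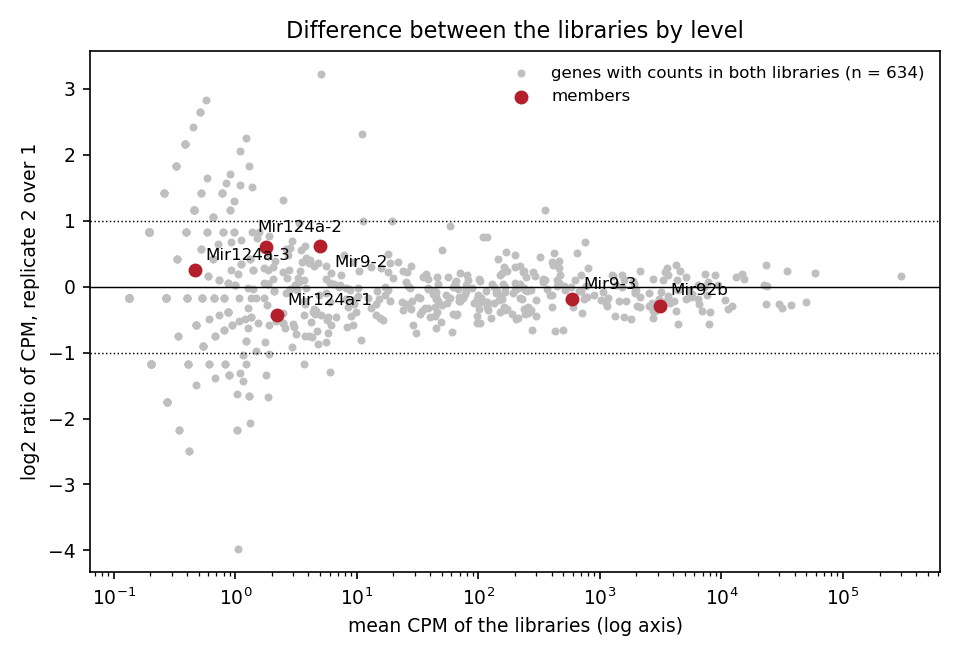
Log2 ratio of CPM (replicate 2 over 1) against the mean CPM of the libraries (log axis) for 634 genes with counts in both libraries, in grey, and the 6 genes in red; dotted lines mark a 2-fold difference. The 6 genes all lie between the dotted lines, with Mir92b at -0.29, Mir9-3 at -0.19 and the wider scatter of low counts around the other 4.

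Other miRNAs linked to neurons were detected throughout. Of 15 further neuron-associated genes 15 reached the minimum, with 1.53% ± 0.0454 of the miRNA counts (SD, n = 2) and a median of 421 CPM. Mir137, which is known for regulating neuronal maturation, was the only gene of this list above Mir92b, at 7614 ± 481 CPM. Of the 15 genes, 6 stood above Mir9-3, Mir7b (2120 ± 167 CPM) and Mir153 (1649 ± 174 CPM) among them, and all 15 stood above Mir9-2 and the 3 miR-124 loci. The miR-9 and miR-124 loci keep no read that fits several loci, so this order is one of gene counts and not of mature miRNAs. By Fisher's exact test with no minimum fold, 9 of the 15 passed, 6 higher in replicate 1 and 3 in replicate 2, and 0 of them reached 2-fold. Of all detected genes 46.9% passed this test. The 3 were Mir128-1 (1.60-fold), Mir128-2 (1.43-fold) and Mir132 (1.42-fold, a neuronal activity-linked miRNA).

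A second list of 9 genes linked to progenitors or neurogenesis was also detected in full. It held 7.27% ± 0.809 of the miRNA counts (SD, n = 2), and 5 of its genes were above Mir92b, led by Mir17 at 31722 ± 5021 CPM, Mir93 at 12296 ± 1797 CPM and Mir20a at 11310 ± 1834 CPM. These 3 belong to the miR-17~92 cluster or its paralogue beside Mir25. Of the 9 genes, 8 passed Fisher's exact test with no minimum fold, 4 in each direction, beside the 46.9% of all detected genes.

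The tissue label was checked against markers of other cells. miRNA genes held 7080317 counts in replicate 1 and 7946585 in replicate 2, of 18598385 and 20638071 reads, and 43.3% and 42.2% of the reads were multi-mapping. Endothelial Mir126a had 2.22% of the miRNA counts, the choroid plexus and ciliated list 0.736%, the mural and stromal list 0.383%, the epithelial list 0.188% and the erythroid, myeloid and lymphoid, striated muscle and liver lists at most 0.0468% each. Between the libraries, the erythroid list moved toward replicate 2 (0.0400% and 0.0537% of the miRNA counts). In it 2 of 2 genes passed Fisher's exact test with no minimum fold, with a median log2 ratio of 1.35. Mir451a was 1.31-fold higher in replicate 2, and Mir144, on 26 and 145 counts, 4.97-fold higher. The epithelial list moved the same way (0.162% and 0.215% of the miRNA counts, 6 of 7 genes passed Fisher's exact test with no minimum fold, median log2 ratio 0.91) and the choroid plexus and ciliated list toward replicate 1 (0.807% and 0.666%, 4 of 5 passed, median -0.29). Beside these lists, 46.9% of all detected genes passed the same test. The direction of the choroid plexus and ciliated list is that of Mir92b and Mir9-3. The part of these cell populations in the ratios of Mir92b and Mir9-3 was not tested. Of the striated muscle list, Mir206 was detected with 136 and 108 counts, and Mir1a-1, Mir133a-1 and Mir133a-2 were at 0 counts. A 0 on a gene with copies elsewhere leaves its multi-mapping reads out.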

How the data were processed

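Small RNA of 2 forebrain libraries was analysed. The values are whole-number read counts per miRNA gene, as deposited by the authors, from 1 alignment per library on mm10 with GENCODE M4, per the deposited README. Aligner, counter and trimming: not given in the sources used here. The column for the gene's own strand was used. Unmapped, multi-mapping, unannotated and ambiguous reads name no gene and were left out of totals (16.5% and 17.0%, 43.3% and 42.2%, 2.08% and 2.35%, and 0% of the reads in replicates 1 and 2).

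Names came from GENCODE M21 by gene ID (1894 of 1973) and sequences from RefSeq (GRCm38.p6). Only the replicate numbers and collection days point to separate animals, so the spread may be partly technical. CPM used the sum over miRNA genes; 1 count was 0.141 CPM in replicate 1 and 0.126 in replicate 2. Fisher's exact test (SciPy 1.17.1) ran over 737 genes. Its code was tried on simulated counts with counting error only, which cannot show how it behaves under variation between libraries. TMM factors came from edgeR 4.0.16 and folding from RNAfold 2.7.2. Window uniqueness was judged against RefSeq hairpins, not the genome. The members and lists were chosen with earlier results of these data known. Named genes are the 6 members, genes that share a seed with them, miRNA genes within 10 kb, Gm25641, the 3 genes nearest in level to Mir92b and to Mir9-3, and up to 3 of the highest of a list. Mir128-1, Mir128-2, Mir132, Mir144, Mir302a, Mir302c and the muscle genes were named after their values were seen. The alternatives were other count minimums, scalings, strands and folds, and each library alone.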

Additional observations from a re-analysis of the deposited data

Results flagged for a closer look

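Opposite-strand counts enter no level of the 6 genes, and above they enter only the shares and ratios that include Mir9-1. They were above 3 counts in both libraries at 1 of the 6 genes and at the antisense model of the miR-9 family. The opposite strand of Gm25641, where Mir9-1 lies, had 70.9 CPM in replicate 1 and 54.5 CPM in replicate 2, with a mean of 62.7 CPM. At Mir124a-3 the opposite strand had 11 and 4 counts beside 3 and 4 on its own strand, a mean of 1.03 CPM. It held 78.6% of the counts there in replicate 1 (95% exact Clopper-Pearson interval 49.2 to 95.3) and 50% in replicate 2 (15.7 to 84.3). Opposite-strand counts at Mir92b were 1 and 0, at Mir9-3 7 and 2, and at Mir9-2, Mir124a-1 and Mir124a-2 0 in both libraries. GENCODE M21 lists no gene on the other strand at Mir124a-3, and the nearest one there, Gm14342, lies 4379 bases away.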

How the results depend on the processing

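Detection of 5 genes became 3 at a minimum of 20 counts and was 5 with each library alone. The share of 0.370% became 0.529% with totals that leave out Mir99a and 0.142% of all reads, and ranged from 0.335% to 0.405% over the single libraries. The count of 0 genes at 2-fold became 2 with no minimum fold and was 0 under the other 7 settings. TMM, median-of-ratios factors, totals without Mir99a and all reads moved all log2 ratios up by 0.08, 0.11, 0.07 and 0.02. Mir92b and Mir9-3 stayed below 0 and passed under each, at the closest with median-of-ratios factors (Mir9-3 log2 -0.08, Fisher's exact test, adjusted p = 0.0367, against 3.1e-09). The 4 seed relatives in the miR-17 clusters kept their calls under each scaling. Mir32 passed when genes under 10 counts in both libraries were left out (adjusted p = 0.0343, fewer tests). The ratio of Mir9-3 to Mir9-2, with a mean of 126, ranged from 92.0 to 160 over the single libraries and was 122 with 1 count added to each locus, a setting chosen after seeing the data. Mir9-3 held 99.2% of the miR-9 pair and 89.8% with the Mir9-1 strand added, also chosen after seeing the data. Of the 6 levels, totals without Mir99a and all reads each moved 6 by over 1 SD (Mir92b from 3097 to 4422 and 1185 CPM), scaling per 100 nt moved 4, and either-strand counts moved 1, Mir124a-3, from 0.464 to 1.47 CPM. The counts at Mir9-2 and the miR-124 loci give wide counting intervals. No paired analysis was possible because there is only 1 group.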

Other observations

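Both miRNA genes that lie within 10 kb of a miR-9 or miR-124 locus, on the same strand, had more counts than Mir124a-1 and fewer than Mir9-3. Mir3078, 443 bases downstream of Mir124a-1, had 118 counts in replicate 1 and 98 in replicate 2, or 14.5 ± 3.06 CPM (SD, n = 2). It exceeded Mir124a-1 by 6.56-fold and 6.53-fold in gene counts, which leave out miR-124 reads that fit several loci. Mir3093, 340 bases upstream of Mir9-1, had 244 and 183 counts, or 28.7 ± 8.08 CPM, while the Mir9-1 strand of Gm25641 held 2.06-fold and 2.37-fold more. Reads that fit several miR-9 loci are left out there too.

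Of the 916 genes with a RefSeq mature sequence, 34 share every listed arm with another gene, as Mir9-2 and Mir9-3 do, and 829 share none, as Mir92b does. The remaining 53 share some arms. Detected were 8 of the 34 (23.5%), 39 of the 53 (73.6%) and 314 of the 829 (37.9%), so detection did not fall steadily with sharing. Mir9-3 was the highest of the 34 by mean CPM and Mir9-2 the eighth. Among the 829, Mir92b was at rank 45.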
